A study of Mus musculus with 10 samples.

Results

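The MARCKS-like growth cone proteins were examined in cortical expression profiles of *Crtc1*-/- and WT mice. The group holds *Marcksl1* and 7 relatives, *Marcks*, *Gap43*, *Basp1*, *Stmn1*, *Stmn2*, *Stmn3* and *Stmn4*. *Marcksl1* was chosen by its measured difference between the genotypes in these same arrays, so its difference is given as a description with no test. The 7 relatives were taken for their shared biology and were tested, but earlier results of these data were known when they were chosen. Members were all probe sets (groups of short probes for 1 transcript) whose platform annotation names only 1 of these 8 genes. That gave 20 of the 45037 probe sets tested, and 8 of the 18193 genes with a probe set of their own. *Marcks* had 7 probe sets, *Marcksl1* had 4, *Stmn1*, *Stmn2* and *Stmn3* had 2 each, and *Gap43*, *Basp1* and *Stmn4* had 1 each. All 20 were kept, since no filter on dim probe sets was applied, and test results are given for the 16 of the relatives.

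The animals were 5 *Crtc1*-/- females and 5 WT littermate females on a C57BL/6N background, aged 2 months and given no treatment. *Crtc1*-/- mice carry the deletion in every cell from conception, so a difference may have arisen at any age and in any cell type of the tissue. Biotin-labelled cRNA made from total RNA of the cerebral cortex of each mouse was hybridised to 1 array, giving 10 arrays, each a separate animal. Values are on a log2 scale, on which a difference of -1 means that the signal in *Crtc1*-/- mice was at 50% of the WT signal.

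CRTC1 is a coactivator of the transcription factor CREB, which binds the cyclic AMP response element (CRE) in promoters. MARCKS and its smaller relative MARCKSL1 are lipid-anchored substrates of protein kinase C that bind calmodulin, actin filaments and the membrane lipid PIP2, and release the membrane when phosphorylated. GAP43 and BASP1 are growth cone proteins that are attached to the inner face of the plasma membrane and handle PIP2 in a similar way. Stathmins, encoded by *Stmn1* to *Stmn4*, bind tubulin dimers and favour the disassembly of microtubules until they are phosphorylated. These proteins are known from growing axons and from the plasticity of adult synapses.

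The stretch before the *Marcksl1* gene is shown because *Marcksl1* is the member chosen for its lower signal in *Crtc1*-/- mice, and a CREB coactivator was deleted. Promoter windows from RefSeq (GRCm38.p6) were at hand for 3 of the 8 members, *Marcksl1*, *Basp1* and *Stmn3*. The *Marcksl1* window covers the 250 bases before the gene's start, chr4:129513331-129513580 on the plus strand, with capitals marking a CCAAT box.
*Marcksl1*: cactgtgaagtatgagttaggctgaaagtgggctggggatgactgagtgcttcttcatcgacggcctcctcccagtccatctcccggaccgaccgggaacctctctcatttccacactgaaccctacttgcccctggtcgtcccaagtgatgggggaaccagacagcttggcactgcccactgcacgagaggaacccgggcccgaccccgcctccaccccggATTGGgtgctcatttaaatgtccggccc
The window held no full CRE (TGACGTCA), no CRE half-site (TGACG or CGTCA, letters that also lie inside the full CRE), no GC box (GGGCGG or CCGCCC) and no TATA box (TATAAA or TTTATA), on either strand. It held 1 CCAAT box (CCAAT or ATTGG), whose first base was at position -28, counting back from -1 at the base before the start. Among 32851 windows of the same length, 1.55% held the full CRE, 17.8% the half-site, 32.7% the GC box, 33.8% the CCAAT box and 12.4% the TATA box. The only half-site in the 3 member windows lay before *Basp1*, and these 29 bases from chr15:25413986-25414014 on the minus strand are shown with the half-site in capitals.
*Basp1*: gtgcgggtgtggTGACGgggggggggcgc
Its first base was at position -238, and the *Basp1* window also held 4 GC boxes. The *Stmn3* window held none of the 5 motifs.

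The label of the mice was checked with *Crtc1* itself. Probe set 1434476_at lay between 5.96 and 6.60 in *Crtc1*-/- mice, against 9.51 to 9.86 in WT mice, a difference of -3.32 (adjusted p = 2.13e-07, limma with Benjamini-Hochberg adjustment over all probe sets). The other *Crtc1* probe sets differed by -1.78 (1458443_at) and -0.03 (1446533_at), and where each lies relative to the deleted part was not checked. Array medians differed by at most 0.03, and arrays correlated with each other at 0.994 to 0.998. The 12 neuronal markers averaged 11.71 ± 0.03 in the *Crtc1*-/- cortex and 11.67 ± 0.04 in the WT cortex (SD, n = 5 each).

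*Marcksl1* was lower in *Crtc1*-/- mice on all 4 of its probe sets, at 49.6% to 63.8% of the WT signal. On the brightest, 1437226_x_at, the log2 values were 8.73, 8.72, 8.82, 8.79 and 8.71 in *Crtc1*-/- mice, against 9.78, 9.81, 9.73, 9.86 and 9.64 in WT mice. All 5 *Crtc1*-/- values thus lay below the lowest WT value, and neither genotype held a mouse that stood apart. Set against the WT mean, the *Crtc1*-/- mice had 48.2% to 51.9% of the signal, and the WT mice had 91.6% to 107%. Means were 8.75 ± 0.05 in the *Crtc1*-/- cortex and 9.77 ± 0.08 in the WT cortex (SD, n = 5 each), a difference of -1.01 (SE 0.05, 95% interval -1.12 to -0.90). The genotype contrast chose the gene, so the SE and the 95% intervals of its 4 probe sets are descriptive. They cannot be read as a test of the change. In whole cortex, fewer cells that express the gene and less RNA in each such cell cannot be told apart.

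The other 3 *Marcksl1* probe sets ran the same way. Probe set 1415922_s_at read 8.09, 8.19, 8.31, 8.32 and 8.09 in *Crtc1*-/- mice, against 9.14, 9.03, 8.98, 9.16 and 8.92 in WT mice, a difference of -0.84 (95% interval -0.99 to -0.70). Probe set 1435627_x_at read 5.23, 5.15, 5.57, 5.40 and 5.02 in *Crtc1*-/- mice, against 5.99, 6.22, 6.14, 6.21 and 5.89 in WT mice, a difference of -0.82 (95% interval -1.04 to -0.59). On both, every *Crtc1*-/- mouse was again below every WT mouse. The dimmest, 1435415_x_at, read 3.56, 3.58, 3.71, 4.04 and 3.59 in *Crtc1*-/- mice, against 3.99, 4.43, 4.55, 4.49 and 4.24 in WT mice, a difference of -0.65 (95% interval -0.91 to -0.39). Here the genotypes overlapped, because *Crtc1*-/- mouse 4 was above WT mouse 1. The genotypes were separate on 3 of the 4 probe sets, and over the whole array this order, every *Crtc1*-/- mouse below every WT mouse, was seen for 1.37% of probe sets (every *Crtc1*-/- mouse above every WT mouse, 0.713%). Nothing is read from that count, since the genotype contrast chose the gene.

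Brightness and difference followed the same order within *Marcksl1*. The 4 probe sets had means at percentiles 88.9, 83.6, 54.3 and 32.0 of all probe-set means on the arrays, and differences of -1.01, -0.84, -0.82 and -0.65 in that order. Whether the probe sets differ from each other in their response was not tested. All 4 carry the suffix _s_at or _x_at, by which the array's maker marks probe sets with probes shared between transcripts or matching other sequences, and 9 of the 20 member probe sets carry such a suffix. No probe set annotated to several genes named a member, so none was set aside on that account.

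**Figure D1:**
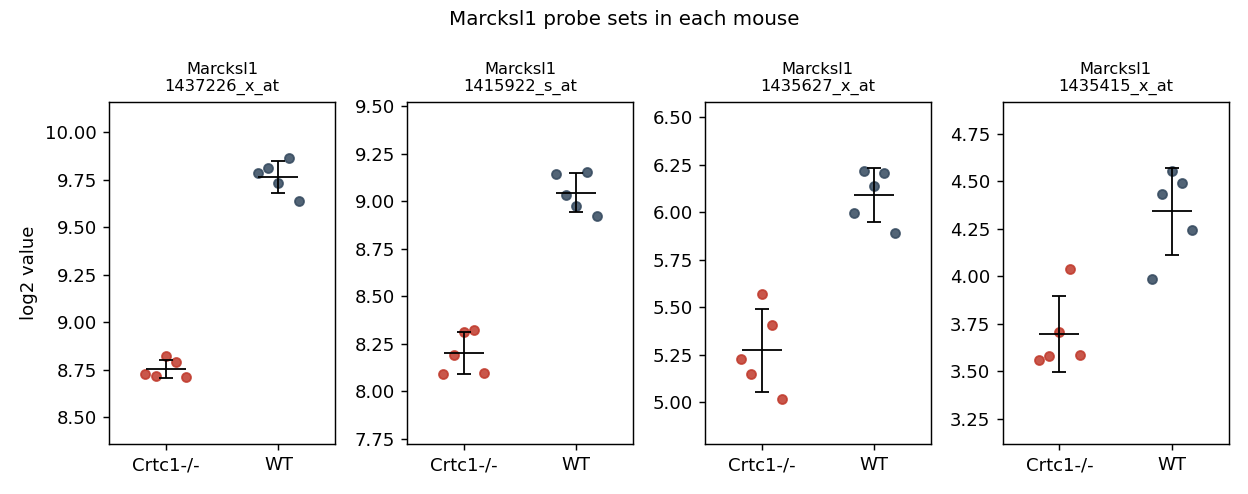
Log2 values of the 4 *Marcksl1* probe sets in each mouse (points), with the mean and SD of each genotype (bars, n = 5), on axes of equal span. The *Crtc1*-/- mean lies below the WT mean on every probe set, with a difference of -1.01 on the brightest (left) and -0.65 on the dimmest (right), where the genotypes overlap.

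None of the 16 probe sets of the 7 relatives passed an adjusted p of 0.05, with 0 lower and 0 higher (limma, Benjamini-Hochberg over 45037 probe sets), where 0.187% of all probe sets passed as lower in *Crtc1*-/- mice and 0.115% as higher. At an unadjusted p below 0.05, 1 of the 16 was counted, that of *Gap43*, where 7.19% of all probe sets were below that level. Differences lay between -0.23 and 0.13 with a median of 0.02, beside a median of -0.00021 over all probe sets, and 11 were above 0 and 5 below. No 95% interval reached -1, the lowest bound being -0.36 for *Gap43* and -0.14 for the rest. In none of the 16 were the genotypes separate. Over all probe sets, 1.37% had every *Crtc1*-/- mouse below every WT mouse, and 0.713% had every *Crtc1*-/- mouse above.

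*Marcks*, the nearest relative, showed no change past the threshold at any of its 7 probe sets. The brightest, 1415971_at, read 10.72, 10.75, 10.77, 10.80 and 10.67 in *Crtc1*-/- mice, against 10.69, 10.76, 10.69, 10.72 and 10.67 in WT mice. The values interleaved, with a difference of 0.04 (95% interval -0.06 to 0.13, adjusted p = 0.934 by limma). Over the 7 probe sets the differences lay between -0.02 and 0.13, 6 of them above 0, with adjusted p-values of 0.767 to 0.988. The highest was that of 1456028_x_at, with 10.70 ± 0.10 in the *Crtc1*-/- cortex and 10.57 ± 0.12 in the WT cortex (SD, n = 5 each). The lowest bound of any *Marcks* interval was -0.14, so a change of the size measured for *Marcksl1* lay outside all 7 intervals. The *Marcks* probe sets of near-median brightness, 1430311_at and 1437034_x_at, differed by -0.02 and 0.07.

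*Gap43* stood nearest to the threshold among the relatives. Its probe set 1423537_at read 10.63, 10.72, 10.68, 10.90 and 10.66 in *Crtc1*-/- mice, against 10.84, 10.98, 10.97, 11.03 and 10.89 in WT mice. Of the *Crtc1*-/- mice, 4 lay below every WT mouse, and *Crtc1*-/- mouse 4 lay above WT mice 1 and 5. Means were 10.72 ± 0.11 in the *Crtc1*-/- cortex and 10.94 ± 0.08 in the WT cortex (SD, n = 5 each), a difference of -0.23 (SE 0.06, 95% interval -0.36 to -0.09), or 85.4% of the WT signal. The difference did not pass after adjustment (adjusted p = 0.265 by limma, which is fitted across all probe sets), and no alternative brought it below an adjusted p of 0.0628. It was -0.27 without *Crtc1*-/- mouse 4 (adjusted p = 0.107). Of 10 hippocampal markers, 2 (*Fibcd1* and *Fam163b*) fell in the same mice while 5 had values above 0. With the mean of the 10 hippocampal markers as a covariate the *Gap43* difference was -0.12 (adjusted p = 0.732), against -0.95 for *Marcksl1*. With the mean of the oligodendrocyte markers instead, the *Gap43* difference was -0.25 (adjusted p = 0.803). The hippocampal mean itself was lower in *Crtc1*-/- mice (5.24 ± 0.06) than in WT mice (5.34 ± 0.06, SD, n = 5 each). That covariate therefore overlaps with the genotype contrast, and its part was not tested. The difference of the hippocampal means was not tested either, and the summed signal of the list ran the other way. The sum was 1800 to 1881 in *Crtc1*-/- mice and 1726 to 1828 in WT mice.

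*Basp1* differed little between the mice. Its probe set 1428572_at read 13.14, 13.17, 13.19, 13.18 and 13.15 in *Crtc1*-/- mice, against 13.25, 13.20, 13.18, 13.21 and 13.18 in WT mice. The genotypes overlapped, with a difference of -0.04 (95% interval -0.12 to 0.05, adjusted p = 0.915 by limma). *Crtc1*-/- mouse 3 lay above WT mice 3 and 5, and every other *Crtc1*-/- mouse lay below all WT mice. SDs were 0.02 in *Crtc1*-/- mice and 0.03 in WT mice.

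The 4 stathmin genes, with 7 probe sets, differed by -0.01 to 0.09, with adjusted p-values of 0.772 to 0.982 (limma) and interval bounds of -0.10 to 0.19. *Stmn1*, the stathmin found in many cell types, read 13.04, 13.02, 13.09, 13.08 and 13.02 in *Crtc1*-/- mice on 1415849_s_at, against 13.04, 13.02, 13.06, 13.10 and 13.09 in WT mice. *Stmn1* lies on chromosome 4, as *Marcksl1* does, and its differences were -0.01 and 0.04 (1448113_at). *Stmn2*, the neuronal stathmin also called SCG10, read 11.65, 11.67, 11.72, 11.62 and 11.66 in *Crtc1*-/- mice on 1423280_at, against 11.67, 11.64, 11.53, 11.73 and 11.66 in WT mice. WT mouse 3 held the lowest *Stmn2* value and WT mouse 4 the highest, so the WT values enclosed those of all *Crtc1*-/- mice. The *Stmn2* differences were 0.02 and 0.06 (1423281_at).

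*Stmn3*, another neuronal stathmin, read 12.94, 12.92, 12.95, 12.87 and 12.90 in *Crtc1*-/- mice on 1435113_x_at, against 12.92, 12.92, 12.85, 12.98 and 12.96 in WT mice. Its WT values again enclosed the others, and its differences were -0.01 and 0.01 (1460181_at). *Stmn4*, the stathmin also named RB3, read 11.54, 11.51, 11.48, 11.44 and 11.42 in *Crtc1*-/- mice, against 11.36, 11.36, 11.45, 11.45 and 11.33 in WT mice. Of the *Crtc1*-/- mice 3 lay above all WT mice, but the genotypes overlapped (difference 0.09, 95% interval -0.01 to 0.19, adjusted p = 0.772 by limma).

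**Figure D2:**
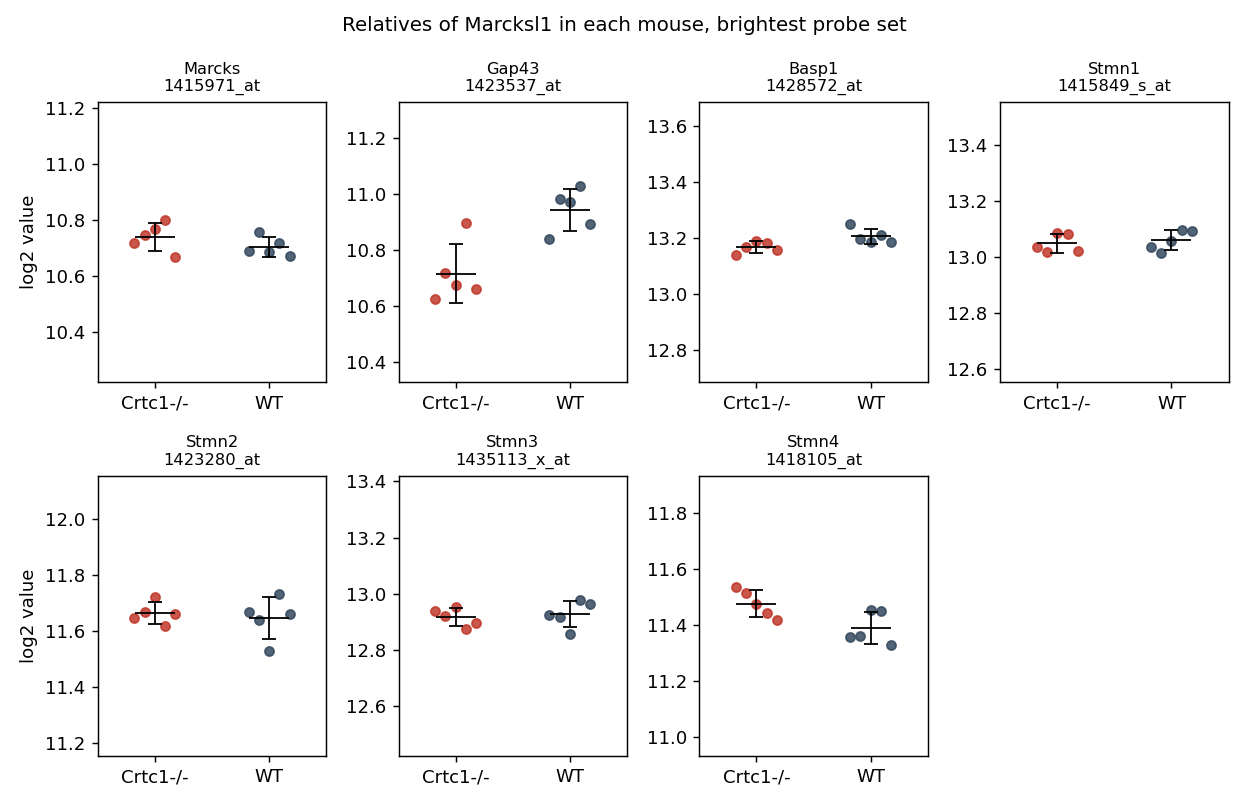
Log2 values of the brightest probe set of each of the 7 relatives in each mouse (points), with the mean and SD of each genotype (bars, n = 5), on axes of equal span. *Gap43* has a difference of -0.23, with *Crtc1*-/- mouse 4 among the WT values, and the genotypes overlap for all 7 genes.

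**Figure D3:**
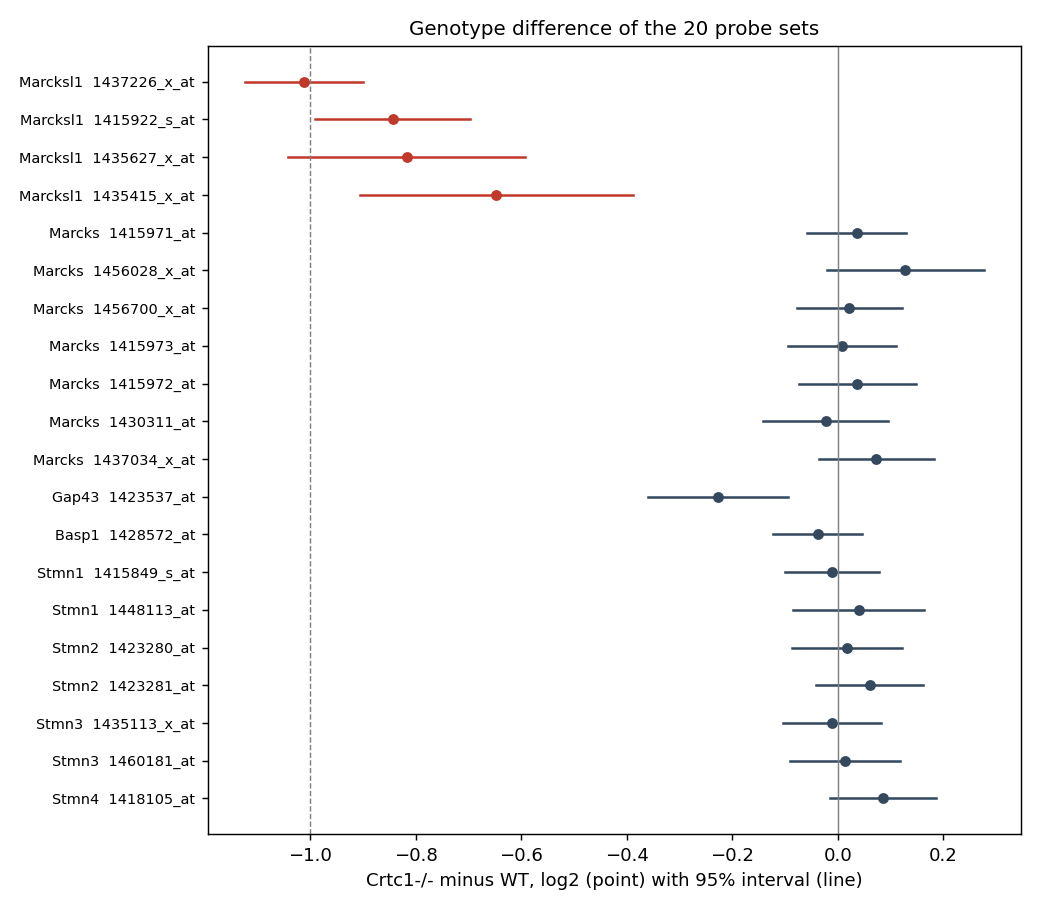
Difference between *Crtc1*-/- and WT mice on the log2 scale (points) with its 95% interval (lines) for the 20 probe sets. The solid line marks 0 and the dashed line -1; the 4 *Marcksl1* probe sets lie between -1.01 and -0.65, and the other 16 lie between -0.23 and 0.13.

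The genes next to *Marcksl1* were examined for a change shared along the chromosome. Of the 10 genes on either side, 20 in all, 13 had a probe set of their own, and 0 passed the threshold (1 at an unadjusted p below 0.05, *Zbtb8b*, with -0.23 and adjusted p = 0.478, limma). Over all genes, 0.313% passed as lower in *Crtc1*-/- mice, 0.203% passed as higher, and 8.83% were below an unadjusted p of 0.05. Differences over the 13 lay between -0.23 and 0.13. The nearest measured genes, *Fam229a* and *Tssk3* on one side and the deacetylase gene *Hdac1* and *Fam167b* on the other, differed by -0.07, 0.03, 0.01 and 0.13. The *Hdac1* interval was -0.27 to 0.29.

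Mice also varied within a genotype, and this variation was compared between members after the genotype mean was removed. Over the 28 pairs of the 8 genes at their brightest probe sets, 23 correlations were above 0 and 1 passed adjustment. *Stmn2* and *Stmn3* deviated together, with Pearson r = 0.90 (exact permutation test within genotype, two-sided, p = 0.00174, adjusted p = 0.0486 over 28 pairs) and Spearman rho = 0.80 (exact p = 0.0192, adjusted p = 0.268). WT mouse 3 was low for both genes, by 0.12 and 0.07, and WT mouse 4 was high for both, by 0.08 and 0.05. Without these 2 mice, the farthest from the median of *Stmn2*, r was 0.73. The call rests on the choice of probe set: at the dimmer probe sets of both genes r was 0.32, and the 4 pairings of a *Stmn2* with a *Stmn3* probe set gave 0.25 to 0.90. The spread of values over all probe sets of an array moved with these deviations, at r = -0.70 for *Stmn2* and -0.54 for *Stmn3* over the 10 arrays, and its part in the result was not tested.

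*Marcksl1* and *Marcks* deviated together at r = 0.65 (exact permutation p = 0.0355, adjusted p = 0.497) and rho = 0.85 (exact p = 0.00931, adjusted p = 0.261), which did not pass over the 28 pairs. Without WT mice 4 and 5, the farthest from the median of *Marcksl1*, r was 0.77. The spread of values over an array had r = -0.50 with *Marcksl1* and -0.34 with *Marcks*, and its part here was not tested either. The 28 pairings of their probe sets ranged between -0.67 and 0.91 with a median of 0.63, as a description over the same 10 arrays. The highest joined 1415922_s_at and 1437034_x_at, which both carry a suffix for shared or cross-matching probes, as all 4 *Marcksl1* probe sets do. Whether such probes raise these correlations was not tested. *Marcks* probe set 1430311_at ran against all 4 *Marcksl1* probe sets, at -0.67 to -0.44, and against the other 6 *Marcks* probe sets, at -0.69 to -0.39. The 4 *Marcksl1* probe sets correlated with each other at 0.26 to 0.83. *Marcks* and *Gap43* gave r = 0.68 (exact permutation p = 0.0606, adjusted p = 0.565).

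**Figure D4:**
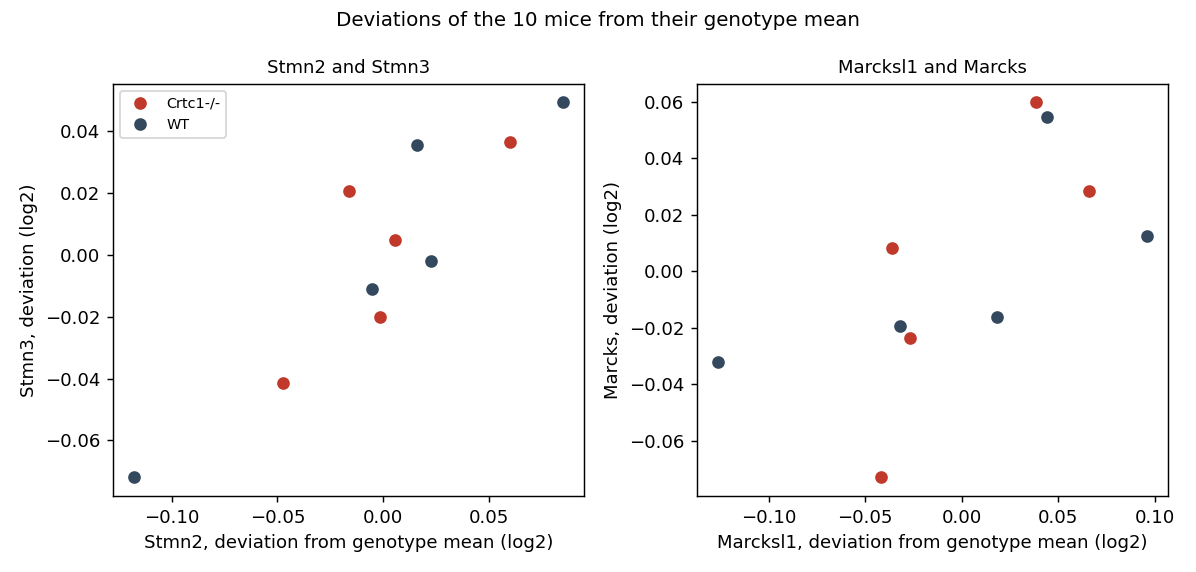
Deviation of each of the 10 mice from its genotype mean (log2) at the brightest probe sets of *Stmn2* and *Stmn3* (left, r = 0.90) and of *Marcksl1* and *Marcks* (right, r = 0.65), coloured by genotype. WT mouse 3, at the lower left of the *Stmn* plot, and WT mouse 4, at the upper right, lie farthest out.

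The genes most like *Marcksl1* within genotype, by Pearson r of the same deviations over 10 arrays and among 18185 genes, were *Prss35* (0.96), *Vmn1r42* (0.93), *4930533K18Rik* (0.93), *Prss12* (0.92) and *Npvf* (0.92). They were picked as the highest of 18185 values over only 10 arrays, and no test was made of these correlations. Spearman rho was 0.65 for *Vmn1r42*, the lowest of the 5, and 0.95 for *Prss35* and *Npvf*. Of these 5, 4 lay below the median brightness of all probe sets, *Prss12* being the exception, and 0 passed the genotype test. The r of *Marcks* with *Marcksl1* was reached or passed by 599 genes.

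Genes that act on or beside these proteins were counted from 5 lists, each gene at its brightest probe set. Of 164 pathway genes measured, 1 passed as lower in *Crtc1*-/- mice, 0 as higher and 163 did not pass, where 0.313% of all genes passed as lower and 0.203% as higher. At an unadjusted p below 0.05, the share of all genes was 8.83%, the background for each list's count at that level. The gene that fell was *Efnb2*, which encodes the membrane-bound guidance ligand ephrin-B2, with 9.61 ± 0.01 in the *Crtc1*-/- cortex and 9.86 ± 0.06 in the WT cortex (SD, n = 5 each), a difference of -0.26 (SE 0.04, adjusted p = 0.0365 by limma). Its *Crtc1*-/- values, 9.59 to 9.62, were below its WT values of 9.80 to 9.96. The call for *Efnb2* was kept in 8 of 21 alternatives, with adjusted p-values of 0.00325 to 0.412.

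Among regulators of MARCKS and GAP43 (protein kinase C, calmodulin and PIP2 enzymes), 0 of 28 genes passed (6 at an unadjusted p below 0.05) and the median difference was -0.01. Those with the smallest p were *Plcb4*, a phospholipase that cleaves PIP2 (0.29, adjusted p = 0.0769), and *Pip5k1b*, a kinase that makes PIP2 (-0.20, adjusted p = 0.332). Among actin regulators, 0 of 38 passed (3 unadjusted) with a median of 0.01, and *Coro1a*, a coronin that binds actin filaments, had -0.20 (adjusted p = 0.158). The list's next gene, *Tmsb10*, a thymosin that binds actin monomers, had 0.12 (adjusted p = 0.540).

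Among microtubule proteins and kinases of stathmins, 0 of 35 passed (1 unadjusted) with a median of -0.01. *Camk4*, a calmodulin-dependent kinase that phosphorylates stathmin and CREB, had 11.32 ± 0.09 in the *Crtc1*-/- cortex and 11.01 ± 0.09 in the WT cortex (SD, n = 5 each). *Camk4* thus differed by 0.32 and missed the threshold (limma, adjusted p = 0.0611). Its relative *Camk2g* had 0.09 (adjusted p = 0.767). In the list of axon growth and guidance genes, which held *Efnb2*, 43 of 44 did not pass, 10 of the 44 were below an unadjusted p of 0.05, and the median was 0.02. Among RNA-binding proteins and factors that act on *Gap43* or neurite growth, 0 of 20 passed (4 unadjusted) with a median of 0.05, where *Sox4* had 0.23 (adjusted p = 0.158) and *Rest*, a repressor of neuronal genes, 0.31 (adjusted p = 0.250). The median over all genes was -0.0030.

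Markers of the cell types in cortex were counted the same way, with the number at an unadjusted p below 0.05 beside each 0. None of the 14 markers of immature neurons passed (5 unadjusted, 6 above 0, median -0.01), with *Sox4* at 0.23 and *Neurod1* at 0.28 (limma, adjusted p = 0.158 and 0.363), and *Cd24a* at -0.30 and *Sox11*, the lowest, at -0.33. None of the 12 neuronal markers passed (4 unadjusted, 4 above 0, median -0.01), *Slc17a6*, a vesicular glutamate transporter, having the smallest p (0.59, adjusted p = 0.104) before the neurofilament gene *Nefm* (0.23, adjusted p = 0.250). The glutamate transporter gene *Slc17a7*, the lowest of that list, had -0.13, and another neurofilament gene, *Nefl*, had -0.11. None of the 13 microglial markers passed (0 unadjusted, 8 above 0, median 0.01), with 0.13 each for *Siglech* and *P2ry13* and -0.10 for *Tmem119*, the lowest. None of the 10 markers of oligodendrocyte precursors passed (2 unadjusted, 8 above 0, median 0.07), with 0.20 for *Sox10*, 0.18 for *Olig2* and -0.13 for *Lhfpl3*, the lowest. Nor did any of the 11 of astrocytes (1 unadjusted, 8 above 0, median 0.07), with 0.22 for *Gfap*, 0.15 for *Aldh1l1* and -0.03 for *Gjb6*, the lowest. The 11 of endothelium and mural cells also gave 0 calls (0 unadjusted, 9 above 0, median 0.06), with 0.17 for *Pdgfrb*, 0.16 for *Tek* and -0.01 for *Rgs5*, the lowest.

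The marker lists of oligodendrocytes and hippocampus were also entered as covariates. All 11 oligodendrocyte markers had values above 0, with a median of 0.17, but 0 passed and 4 were below an unadjusted p of 0.05 (*Opalin* 0.44, adjusted p = 0.485; *Cnp* 0.17, adjusted p = 0.625, limma). Their summed signal on a linear scale was 28996 to 32762 in *Crtc1*-/- mice, against 25748 to 29625 in WT mice. With the mean of this list as a covariate the *Marcksl1* difference was -1.01. Of the 10 hippocampal markers 2 fell, *Fibcd1* by 0.41 (adjusted p = 0.0225) and *Fam163b* by 0.28 (adjusted p = 0.0476), and the median was -0.06. Of the 8 that did not pass, 5 had values above 0, the highest being *Stxbp6* with 0.16 and *Lct* with 0.13. *C1ql2*, *Prox1* and *Iyd* were near 0, with 0.02, 0.01 and 0.0020. The lowest of the 8 were *Tdo2* with -0.24 and *Spink8* with -0.23. At an unadjusted p below 0.05 (limma), 5 of the 10 were counted, where the share of all genes was 8.83%. *Fibcd1*, a dim probe set, had 5.02 ± 0.09 in the *Crtc1*-/- cortex and 5.43 ± 0.11 in the WT cortex (SD, n = 5 each). The mean log2 value of this list was 5.24 ± 0.06 in the *Crtc1*-/- cortex and 5.34 ± 0.06 in the WT cortex (SD, n = 5 each), whereas its summed signal ran the other way, 1800 to 1881 in *Crtc1*-/- mice and 1726 to 1828 in WT mice. The part of either list in the *Marcksl1* and *Gap43* differences was not tested beyond the covariate values given.

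**Figure D5:**
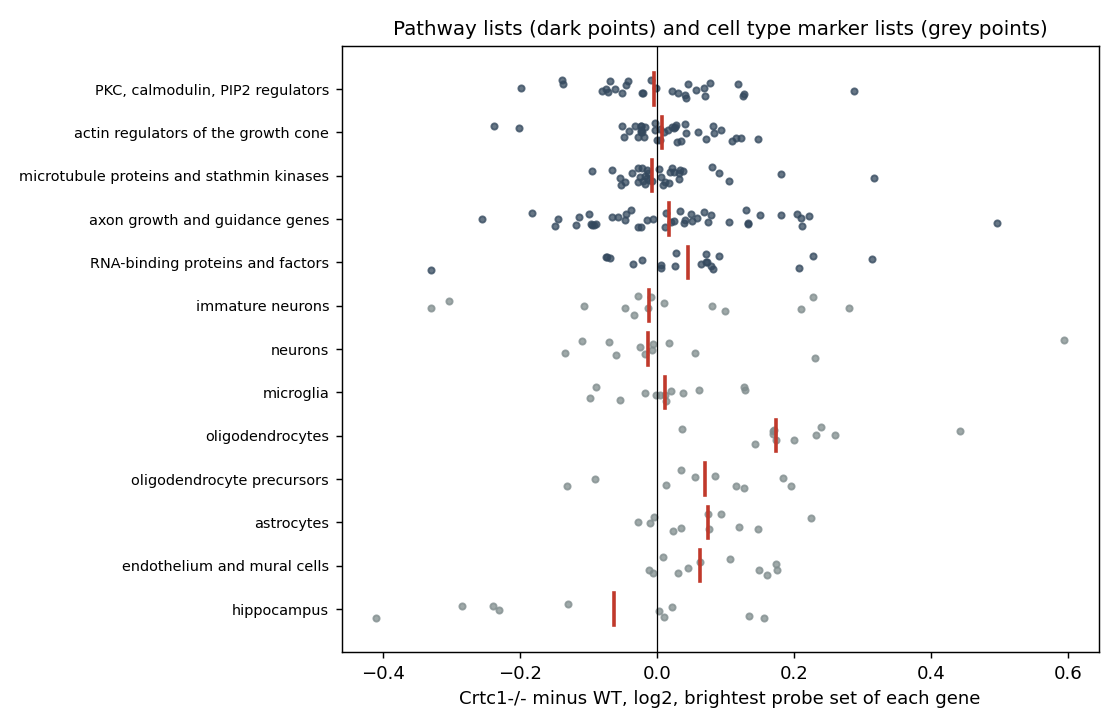
Difference between *Crtc1*-/- and WT mice (log2) of every measured gene of the 5 pathway lists (dark points) and the 8 marker lists (grey points), with each list's median (red bar). Medians lie between -0.06 for hippocampus and 0.17 for oligodendrocytes, and the pathway medians between -0.01 and 0.05.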

How the data were processed

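The authors made biotin-labelled cRNA with a 3' IVT kit from total RNA of the cortex of 5 *Crtc1*-/- and 5 WT female mice. They hybridised it to Affymetrix GeneChip mouse genome arrays and excluded chips of poor quality. The deposited table holds normalized log2 values for 45101 probe sets, between 2.14 and 13.90. The normalization method is not given in the sources used here. Because the arrays share nearly the same distribution of values, a change in total RNA cannot be seen. Sequencing depth does not apply, and precision is limited by the number of arrays.

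After 64 control probe sets were left out, 45037 were tested with limma (version 3.58.1, run in R 4.3.3) for the difference of *Crtc1*-/- from WT mice. The p-values were adjusted by Benjamini-Hochberg over all of them, with a threshold of 0.05. Genes were named from the platform annotation, which gives 1 gene for 34945 probe sets, several for 932 and none for 9160. The members and the 13 gene lists were chosen with earlier results of these data known. The text names all members and, in each list, up to 4 genes that passed or else the 2 with the smallest p; 4 neighbours of *Marcksl1* (and any that passed); and the 5 genes most like it. *Zbtb8b*, *Sox11*, *Cd24a*, *Slc17a7*, *Nefl*, *Stxbp6* and *Lct* were added after their values were seen. The same holds for *C1ql2*, *Prox1*, *Iyd*, *Tdo2*, *Spink8*, *Tmem119*, *Lhfpl3*, *Gjb6* and *Rgs5*. A gene is represented by its brightest probe set. The step of each test was checked on simulated data. Correlations and figures were made in Python 3.11.15. Alternatives were quantile normalization, median centring, filters on dim or _s_at and _x_at probe sets, other variance priors, array weights, a replicate block, leaving out each mouse, and the mean of a gene's probe sets. Marker means as covariates and the dimmer *Stmn2* and *Stmn3* probe sets were added after seeing the data. No batch or scan date was used, since none was given in the sources used here.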

Additional observations from a re-analysis of the deposited data

Results flagged for a closer look

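In 1 member probe set a mouse lay far outside its genotype. At *Marcks* 1430311_at, *Crtc1*-/- mouse 5 read 5.78, against 5.61 to 5.66 in the other *Crtc1*-/- mice. Chance alone marks about 1 in 20 such groups, and each of the 20 member probe sets holds 1 group per genotype. This 1 mark is therefore no more than chance would give. WT mouse 5 was also the highest of its genotype there, at 5.81.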

How the results depend on the processing

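Of the relatives' probe sets 0 passed in any of 20 alternatives, with all 16 tested in each but that without _s_at and _x_at probe sets, which tested 11. Over the whole array 136 probe sets passed, with 239 under a trended and robust prior, 75 without moderation, 70 to 105 when each mouse was left out in turn (70 without WT mouse 2), and, with the oligodendrocyte or hippocampal marker mean as a covariate, 30 and 21. Replicate numbers did not pair the samples (correlations of same-numbered deviations -0.33 to 0.09, and 1 of 5 WT mice closest to its own number), and with a replicate block 40 passed. The block leaves each difference as it is, since the design is balanced. The *Marcksl1* difference was -0.83 as a mean over its probe sets and -1.04 to -0.99 with each mouse left out. It has no value without _s_at and _x_at probe sets, since all 4 carry a suffix. Small differences turned sign: *Stmn1* to 0.014 with the mean over probe sets and to 0.0025 with the hippocampal covariate, *Stmn2* to -0.012 without WT mouse 3 (-0.012 to 0.038 over mice left out), and *Stmn3* to 0.0061 with quantile normalization, 0.0015 with the mean over probe sets and 0.00090 without WT mouse 4 (-0.029 to 0.00090). The number of correlated pairs, 1, became 0 with quantile normalization, median centring, the mean over probe sets, the dimmer probe sets or Spearman's rho, and was 0 to 1 with each mouse left out, 1 only without *Crtc1*-/- mouse 1. *Fibcd1* passed in 11 of 20 alternatives and *Fam163b* in 3 of 21. The number of genes that passed in a gene list moved by over 1.5 times in 45 cases of a list and an alternative, and did not in 228. Under the trended and robust prior, 2 regulators of MARCKS and GAP43 passed, 2 axon genes, and 1 each of the actin, microtubule, RNA-binding and immature neuron lists. Under the replicate block 0 axon and 0 hippocampal genes passed. The causes were not tested.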
